A study of Mus musculus with 8 samples.

Results

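The genes described here encode the proteins of the cytosolic ribosome. Members were chosen by symbol, as genes named Rps or Rpl followed by a number, together with Rpsa and the stalk genes Rplp0, Rplp1 and Rplp2. The rule took 87 of the 54146 genes listed, of which 36 belong to the small subunit, 48 to the large subunit and 3 to the stalk. In the GENCODE M21 annotation 83 of the 87 are protein coding and 4 small-subunit members, Rps4l, Rps12l1, Rps3a2 and Rps3a3, are processed pseudogenes. Their mRNA levels come from RNA-seq of 8 libraries, prepared from primary cortical astrocytes of neonatal C57BL/6 mice, 2 biological replicates in each of 4 groups. Mixed glia were infected with a pLKO-puro lentivirus that carried either an shRNA against Gstm1 (GSTM1 KD) or a non-silencing shRNA (control KD), selected with puromycin, and depleted of microglia by shaking and by CD11b beads. The astrocytes were then left unstimulated (baseline, the basal level of the plots) or given TNF-α at 50 ng/ml for 6 h. Control KD cells therefore also carried a lentivirus and had passed the same selection, and GSTM1 KD is 1 knockdown in a mixed population of infected cells.

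Each ribosomal protein gene contributes a subunit to a particle that joins the small subunit, which decodes the messenger RNA, to the large subunit, which forms peptide bonds and carries the stalk that recruits elongation factors. The proteins are made in the cytoplasm, imported into the nucleolus and assembled on ribosomal RNA, and those made in excess are degraded. Most of their messenger RNAs start with an unbroken run of pyrimidines, the TOP motif, through which mTORC1 and LARP1 control their translation and stability.

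The start regions of members show how this motif differs between genes whose levels are described below. Each sequence is a window of 26 bases of GRCm38.p6 from the RefSeq promoter table, 10 before the first listed start and 16 from it on, read 5′ to 3′ on the strand of the gene. Capitals mark a run of at least 6 C or T bases that covers the start or begins within 5 bases of it.
Rpl28, chr7:4792955-4792980, plus strand: tctcgtgTCTCTCTTTCCgtctccgg
Rpl14, chr9:120571507-120571532, plus strand: ggCCCTCTCTCTTCTCgctgagcgcc
Rps10, chr17:27635229-27635254, minus strand: gcgcacgCCCCTTCCTTTCCagcctc
Rps2, chr17:24720053-24720078, plus strand: gtcgagatctcgcgCTTCTTggagca
Rps26, chr10:128626491-128626516, minus strand: gcaagccgccggaTCCTCTTTCgagt
Rpl15, chr14:18270971-18270996, minus strand: agaaagCCTTCTTCCTTTCCTCTggc
Rpl7a, chr2:26910797-26910822, plus strand: CTCTTCTTTCTTTCTCCagcagccga
Rpsa, chr9:120127756-120127781, plus strand: ttatttaaggacgtcatttccggccg
Rps13, chr7:116334175-116334200, minus strand: caaacgtcggtgagtggcgtcacttc
Rpl7l1, chr17:46782641-46782666, minus strand: gctgcgcaagcgcagtagctgaagca
The first 5 genes passed the test for a lower level in GSTM1 KD astrocytes after TNF-α. Rpl15 and Rpl7a, chosen after their values were seen, have runs of 17 and 21 bases (the latter reaches past the window) and did not pass the test, with log2 fold changes of −0.22 and −0.33 at baseline and −0.14 and −0.34 after TNF-α. The last 3 genes, lower in both states, hold no such run at this start. The table held 63 members, all protein coding, and 25 of them (39.7%) had the run, against 13.0% of 17491 protein-coding promoters. The windows printed are a selection. After TNF-α 7 of the 25 members with a run and 11 of the 35 tested members without it were called lower, against 8.92% of all genes. At baseline these counts were 0 and 3, against 5.62% of all genes. The start listed first in the table need not be the one used in astrocytes, and a window without a run says nothing about the factor.

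The labels were checked on the targeted gene and on cell type markers. Gstm1 had 8153 and 9644 expected counts in control KD against 676 and 626 in GSTM1 KD at baseline, and 4851 and 6492 against 527 and 405 after TNF-α. The totals of expected counts ran from 17349676 to 34434633 per library. The astrocyte marker Gfap lay between 921 and 5631 CPM (counts scaled to library size) in the 8 libraries. Of the 7 microglial genes listed, Cx3cr1, P2ry12, Tmem119, Itgam, Aif1 and Csf1r were each at or under 2.71 CPM in every library, while the whole list summed to 44.5 to 52.3 CPM. Mog of mature oligodendrocytes had at most 1 count in a library, while the oligodendrocyte-lineage gene Olig1 was at 297 to 519 CPM. Of the 5 neuron markers, Snap25 and Rbfox3 had at most 2 and 9 counts in a library, but the list summed to 291 to 373 CPM, nearly all of it Map2 (219 to 287 CPM) and Tubb3 (66.1 to 86.6 CPM), which encode proteins of the microtubule. Of the 4 endothelial markers Cldn5 had 0 counts in all 8 libraries, and the list summed to 7.30 to 24.1 CPM, mostly Flt1.

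Ribosomal protein mRNAs were among the most abundant in these astrocytes. In TPM, a share of all transcripts after correction for length, the 87 members summed to 124192 and 97680 in control KD at baseline, and to 86172 and 76280 in GSTM1 KD. After TNF-α the sums were 120022 and 98761 in control KD against 84822 and 77620 in GSTM1 KD. All 4 GSTM1 KD libraries thus lay below all 4 control KD libraries. Members took 9.77% to 12.4% of all TPM in control KD and 7.63% to 8.62% in GSTM1 KD. The ratio of the group means was 0.732 at baseline and 0.742 after TNF-α. With 2 libraries a group, no exact permutation test of such a sum can go below p = 0.333, and none was made. In bulk RNA, fewer cells of a type and less RNA per cell cannot be told apart.

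**Figure D1:**
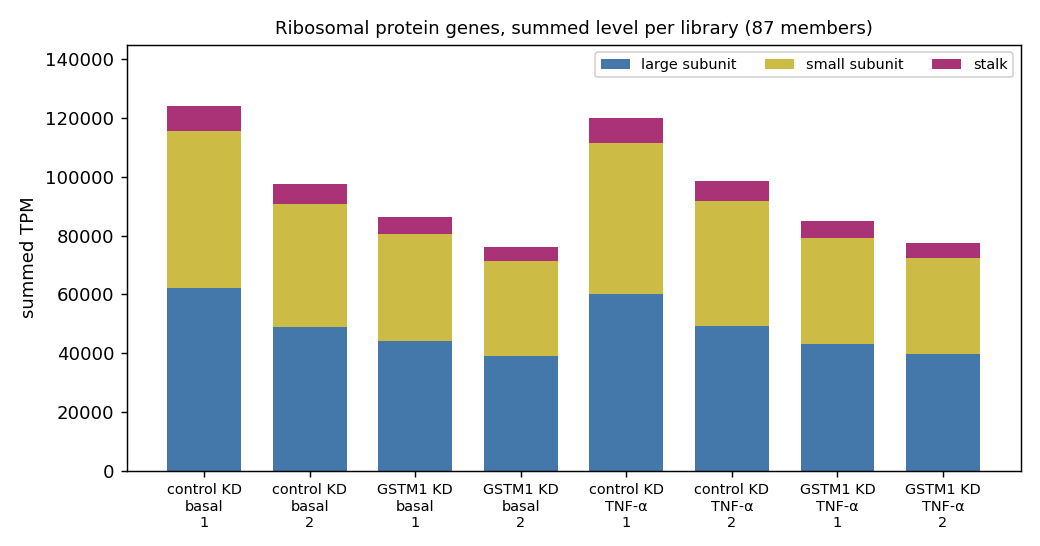
Summed TPM of the 87 members in each of the 8 libraries, divided into large subunit, small subunit and stalk genes; 1 and 2 under the bars are replicate numbers. The GSTM1 KD libraries lie between 76280 and 86172, below the control KD libraries at 97680 to 124192, and replicate 1 is higher than replicate 2 in every group.

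The replicates also differed, and in one direction. Replicate 1 was above replicate 2 in 82 of the 83 tested members in control KD and in GSTM1 KD at baseline, and after TNF-α in 82 and 80 of them. The median difference between the replicates was 0.41 log2 units in control KD and 0.19 in GSTM1 KD at baseline, and 0.29 and 0.13 after TNF-α, while over all 15332 genes replicate 1 was higher for 48.4% to 50.3% of them. A common shift of the members was thus part of the spread between replicates against which each of them was tested.

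The split between the subunits stayed within a narrow range. Small-subunit genes held 42.5% to 43.2% of the members' TPM in every library. The 3 stalk genes summed to 8715 and 6872 TPM in control KD against 5529 and 4906 in GSTM1 KD at baseline, and to 8451 and 7061 against 5483 and 5106 after TNF-α. Their ratio of means was 0.670 and 0.683 in the 2 states, against 0.726 and 0.735 for small-subunit and 0.746 and 0.757 for large-subunit genes. These differences between the classes were not tested.

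Levels of single members spanned a wide range. Rplp1, an acidic stalk protein, was the highest with a mean of 4157 TPM over the 8 libraries, followed by Rps2 (2883), Rpl13a (2824), Rpl41 (2771), which encodes the smallest ribosomal protein, and Rps14 (2413). Rps15, Rpl23a, Rpl26 and Rpl38 were also among the 10 highest, at 1628 to 1872 TPM. At the other end of the protein-coding members above the floor of 3 counts were Rpl7l1 at 64.7 TPM, Rpl5 at 175, Rpl22l1 at 238, Rpl27a at 442 and Rpl27 at 455, and the pseudogenes Rps4l, Rps12l1 and Rps3a2 were lower still at 31.9, 14.7 and 5.06 TPM. The order holds for the mean over all 8 libraries, and Rps2 was above Rpl13a in all 4 control KD libraries but below it in all 4 GSTM1 KD libraries. Neighbours mostly overlapped: Rps2 ran from 2045 to 4010 TPM over the libraries, Rpl13a from 2179 to 3692 and Rpl41 from 2100 to 3577. Of the top 100 genes by TPM, 33 to 45 were members in control KD libraries and 28 to 32 in GSTM1 KD libraries. The tissue-restricted copies Rpl3l and Rpl39l reached at most 3 and 2 counts in any library and Rpl10l had 0, all within a floor of 3 counts below which no level is given. The pseudogene Rps3a3, with 0 to 9.23 counts, did not pass the filter on low counts either, so that 83 members, 80 of them protein coding, were tested.

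At baseline 3 members were lower in GSTM1 KD than in control KD astrocytes past the test, and none was higher. With a block for the replicate number in the fit, 72 were called lower (86.7% of 83), against 15.9% of all genes. The labels do not say whether equal replicate numbers belong together, so the fit without this replicate block is given here. Rpsa encodes a small-subunit protein that is also known as the laminin receptor (gene at chr9:120127689-120132369, plus strand). Its level was 1640 and 1320 TPM in control KD and 895 and 728 TPM in GSTM1 KD, so that the groups did not overlap, and the log2 fold change was −0.93 (SE 0.176, adjusted p = 0.0350, edgeR quasi-likelihood test). Rps13, a small-subunit protein bound early in assembly (chr7:116331505-116334195, minus strand), was at 1094 and 815 TPM in control KD and 596 and 556 TPM in GSTM1 KD. Its log2 fold change was −0.81 (SE 0.181, adjusted p = 0.0484, edgeR), a call that some alternatives given below lost. Rpl7l1, a paralog of the large-subunit gene Rpl7 (chr17:46773907-46782672, minus strand, overlapping Gm26904 on the other strand), was at 78.6 and 71.4 TPM in control KD and 54.2 and 51.2 TPM in GSTM1 KD. Its groups were apart as well, and its log2 fold change was −0.57 (SE 0.108, adjusted p = 0.0348, edgeR).

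These 3 genes lay within a shift towards lower values that nearly all members showed. The 3 called members are 3.61% of the 83, against 5.62% of all 14899 genes called lower (4.6% were called higher). All 80 protein-coding members had a negative log2 fold change, from −0.93 to −0.19, and the median of the 83 was −0.51 (a fold of 0.704), against −0.00 over all genes. In 74 of 83 members both GSTM1 KD libraries were below both control KD libraries, which held for 31.2% of all genes. An unadjusted p under 0.05 with a lower level was found for 61 members and for 16.3% of all genes. DESeq2 called 42 members lower, against 10.2% of all genes. The number of calls in edgeR changed with the libraries in the fit. Without control KD replicate 1 there were 5 calls (6.02% of 83), against 8.41% of all genes lower, without control KD replicate 2 there were 79 lower and 1 higher (the pseudogene Rps12l1), against 17.0% lower and 17.2% higher over all genes, and without GSTM1 KD replicate 1, or without its replicate 2, there was no call of a member, in fits that called 1 and 3 of all genes. The median of the members was −0.30 without control KD replicate 1, −0.70 without its replicate 2, and −0.60 and −0.42 without the GSTM1 KD replicates.

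After TNF-α 22 members were lower in GSTM1 KD than in control KD astrocytes and none was higher. They were 26.5% of those tested, against 8.92% of all 14593 genes called lower (7.26% were called higher). They comprised 10 of 32 coding small-subunit genes, 10 of 45 large-subunit genes and 2 of 3 stalk genes, with log2 fold changes from −0.94 to −0.52 and adjusted p from 0.0148 to 0.0494 (edgeR). Rpl7l1 was at 82.6 and 77.5 TPM in control KD and 51.9 and 50.0 TPM in GSTM1 KD, with a log2 fold change of −0.72 (SE 0.0961, adjusted p = 0.0148). Rpsa was at 1612 and 1376 TPM against 871 and 779 TPM, a log2 fold change of −0.94 (SE 0.140, adjusted p = 0.0180). For both genes the libraries of the groups were well apart, and GSTM1 KD libraries with and without TNF-α lay close together.

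The other 3 of the 5 smallest p-values after TNF-α belonged to Rps13, Rpl28 and Rps2. Rps13 was at 1034 and 861 TPM in control KD and 637 and 568 TPM in GSTM1 KD, with a log2 fold change of −0.71 (SE 0.138, adjusted p = 0.0303, edgeR). Rpl28, a large-subunit protein (gene at chr7:4792874-4795066, plus strand, overlapping Ube2s on the other strand), was at 1296 and 1017 TPM against 766 and 741 TPM. Its log2 fold change was −0.74 (SE 0.146, adjusted p = 0.0306, edgeR). Rps2, which lines the channel where the messenger RNA enters the small subunit (chr17:24718116-24721929, plus strand, overlapping Snhg9 on the other strand), was at 3962 and 3157 TPM against 2312 and 2045 TPM. Its log2 fold change was −0.77 (SE 0.166, adjusted p = 0.0371, edgeR). All 3 separated the groups without overlap. At baseline Rpl28 and Rps2 had log2 fold changes of −0.80 and −0.71 with adjusted p of 0.0616 and 0.0658, short of the threshold. With the replicate block both passed at baseline (adjusted p = 1.2e-04 and 8.2e-04, edgeR).

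The other called members included Rpl10, Rpl13, Rpl14, Rpl18, Rpl19, Rpl36, Rpl37a and Rpl41 of the large subunit, Rps10, Rps12, Rps18, Rps19 and Rps26 of the small subunit, and Rplp0 and Rplp1 of the stalk. Rps19, a gene mutated in Diamond-Blackfan anaemia, had a log2 fold change of −0.55. Rps26, near the exit of the messenger RNA channel, had −0.71. Rplp1 was at 5522 and 4528 TPM in control KD and 3444 and 3129 TPM in GSTM1 KD, with a log2 fold change of −0.66, and Rplp0, the base of the stalk, had −0.55. Over the 83 members the median log2 fold change was −0.45 (a fold of 0.730), against −0.01 over all genes, and 75 members separated the groups downward against 31.9% of all genes. An unadjusted p under 0.05 with a lower level was found for 63 members and for 19% of all genes. DESeq2 called 47 members lower against 11.2% of all genes, and the replicate block 62 against 15.3%. Limma on log2(TPM + 1) called 3 of the 83 members lower, a smaller share than the 4.79% of all genes. Without control KD replicate 2 edgeR called 74 members, against 16.2% of all genes lower, and without 1 or the other GSTM1 KD library no member was called, in fits that called 0 of all genes (replicate 1 left out) or 63 higher and 31 lower (replicate 2 left out). The median without 1 library was −0.31 or −0.59 for control KD replicates 1 and 2 and −0.52 or −0.40 for those of GSTM1 KD.

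**Figure D2:**
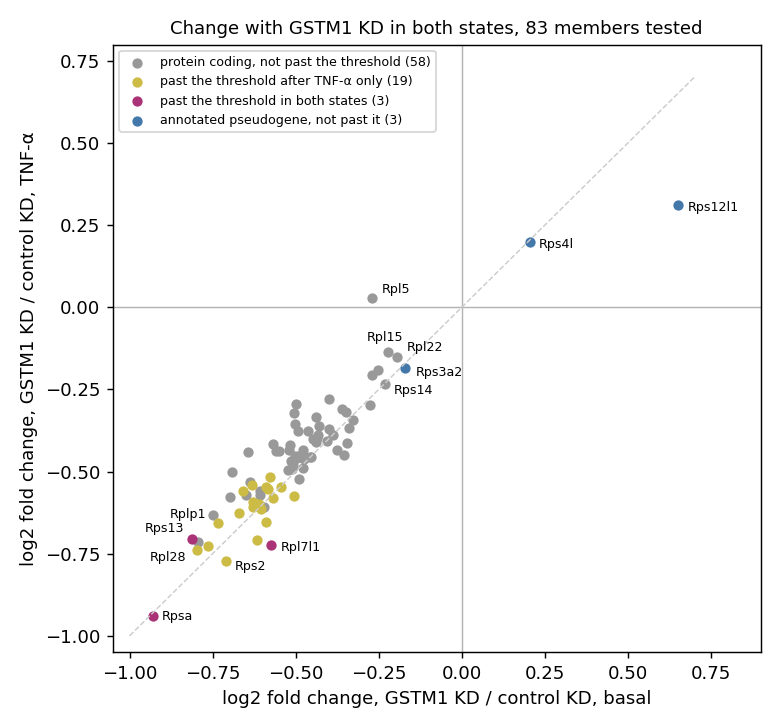
Log2 fold change of GSTM1 KD against control KD at baseline (x axis) and after TNF-α (y axis) for the 83 tested members, coloured by whether they passed the edgeR threshold; the dashed line marks equal changes. Rpsa is lowest in both states at −0.93 and −0.94, Rpl5 is the sole coding member not below 0 after TNF-α, and the pseudogenes Rps4l and Rps12l1 lie above 0 on both axes.

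The size of this difference varied between members in a way that was alike in both states. Over the 80 coding members the log2 fold changes of the 2 states, which share no library, had a Pearson r of 0.887 and a Spearman rho of 0.872. This is a description across genes that share libraries and reads, with no test. The labels do not say whether libraries of the 2 states came from the same infected cultures. Differences between replicates correlated at 0.58 between the 2 control KD groups and at 0.33 between the 2 GSTM1 KD groups, over 15332 genes. The 3 members called at baseline were also called after TNF-α. In CPM, 70 of the 80 coding members were lower in all 4 GSTM1 KD libraries than in all 4 control KD libraries, which was so for 18.4% of all genes. The level and the length of the message went little with its size. Across these genes the Spearman rho with mean log2 TPM was −0.02 and −0.05 in the 2 states, and with effective length 0.15 and −0.08. The 25 tested members with a C or T run had a median log2 fold change of −0.55 at baseline and −0.52 after TNF-α, and the 35 without it −0.50 and −0.45.

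**Figure D3:**
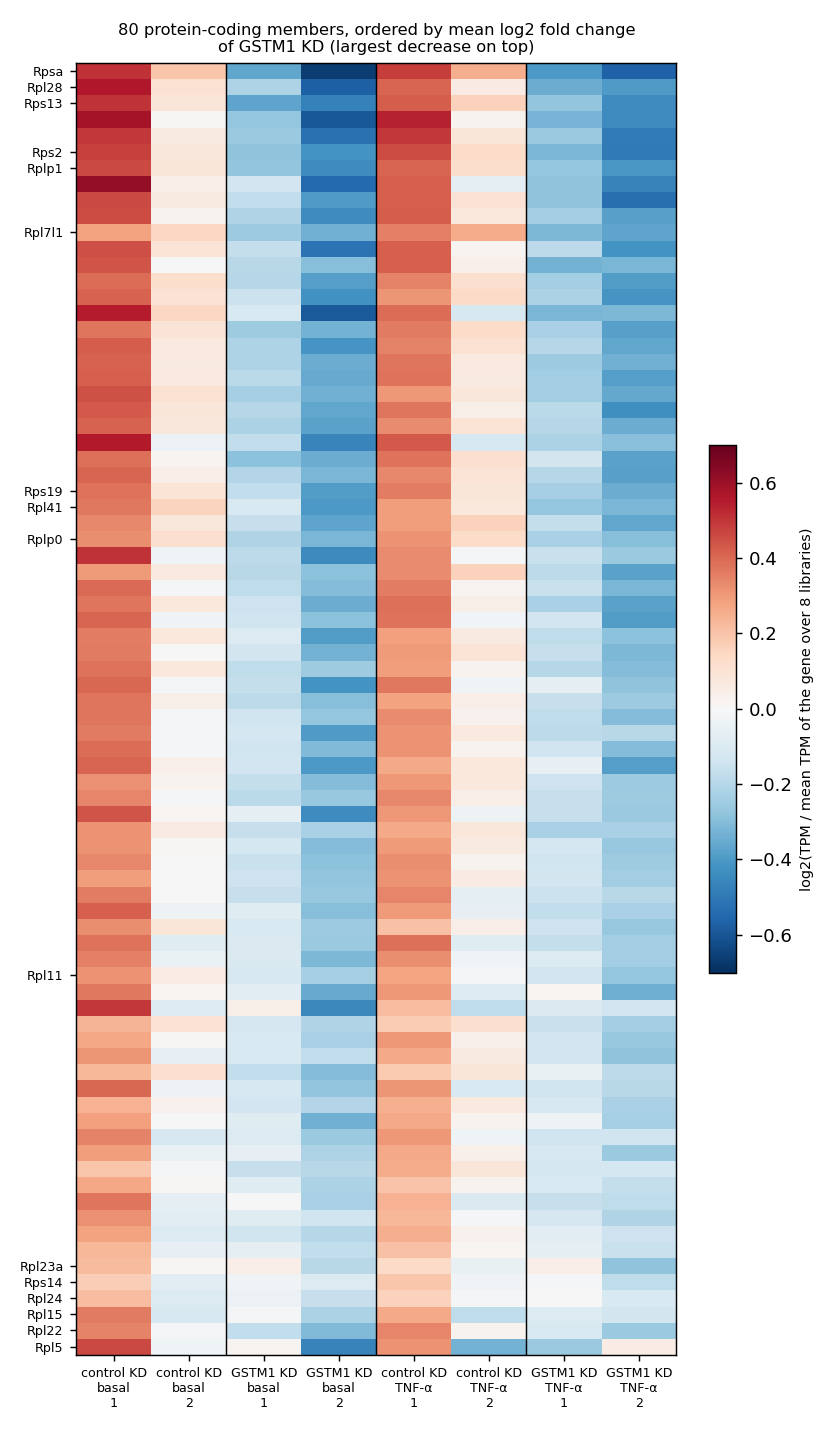
Level of the 80 tested protein-coding members in the 8 libraries, as log2 of TPM over the gene's mean TPM, with genes ordered by their mean log2 fold change in GSTM1 KD and rows labelled for some of the genes named in the text. Control KD replicate 1 libraries are highest and GSTM1 KD replicate 2 libraries mostly lowest, and the contrast is strongest for Rpsa, Rpl28 and Rps13 on top and faintest for genes such as Rps14 and Rpl24 at the bottom.

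Each member was also expressed as a share of the members' own summed TPM, which removes the common shift. Of the 80 coding members, 18 had a lower share in all 4 GSTM1 KD libraries than in all 4 control KD libraries. Another 18 had a higher share and 44 overlapped. In CPM, which is a different measure, 18.4% of all 15332 genes were lower in all 4 GSTM1 KD libraries, and 18 of 80 is near that. The upward direction was not counted over all genes. The counts of shares were not tested against other genes, and the genes below are given as a description. Rpsa made up 1.32% to 1.39% of the sum in control KD and 0.954% to 1.04% in GSTM1 KD. Rplp1 made up 4.51% to 4.61% against 3.99% to 4.06%, and Rps2 3.12% to 3.30% against 2.63% to 2.83%. Rps18 (1.78% to 1.51% on average), Rps13 (0.862% to 0.726%), Rpl12 and Rpl28 went the same way. Shares rise where a gene fell less than the rest. Rps14, which lies on the platform of the small subunit, made up 2.19% to 2.40% in control KD and 2.75% to 2.96% in GSTM1 KD, and Rpl24 1.00% to 1.08% against 1.21% to 1.29%. Rpl23a, at the exit of the nascent peptide tunnel, took 1.67% to 1.87% against 1.92% to 2.21%. The fold changes of these last 3 genes did not pass the test in either state, with log2 values of −0.23 for Rps14, −0.25 for Rpl24 and −0.27 for Rpl23a at baseline and −0.23, −0.19 and −0.20 after TNF-α.

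Rpl5 and Rpl22 were the coding members whose values turned most on how the level was expressed. Rpl5 and Rpl11 form, with the 5S ribosomal RNA, the particle that can bind Mdm2. Rpl5 was at 241 and 171 TPM in control KD and 177 and 126 TPM in GSTM1 KD at baseline, and at 218 and 139 against 146 and 181 TPM after TNF-α, so that the groups overlapped. Its log2 fold changes were −0.27 (adjusted p = 0.410) and 0.03 (adjusted p = 0.934, edgeR), and with effective lengths as offsets −0.49 and −0.18. Rpl11 had a log2 fold change of −0.40 after TNF-α (adjusted p = 0.112). Rpl22, an RNA-binding protein of the large subunit, had effective lengths of 357 to 371 bases in control KD libraries and 430 to 457 bases in GSTM1 KD libraries, which is a difference in the estimated mix of its transcripts. Its level was 1094 and 852 TPM against 763 and 694 TPM at baseline and 1090 and 874 against 798 and 718 TPM after TNF-α. In counts its log2 fold changes were −0.19 and −0.15, and with length offsets −0.47 and −0.43, with adjusted p of 0.113 and 0.101. Length offsets moved no other tested member by more than 0.15 in either state except Rps15a after TNF-α (from −0.39 to −0.21).

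Paralogs and pseudogenes among the members did not all follow the genes they are named after. Rpl7l1 amounted to 5.12% and 5.69% of the TPM of Rpl7 in control KD against 4.32% and 4.42% in GSTM1 KD at baseline. After TNF-α it amounted to 5.47% and 5.87% against 4.15% and 4.27%, so that all GSTM1 KD libraries were lower. Rps27l, a paralog that is a p53 target, lay at 35.5% to 38.8% of Rps27 in the control KD libraries and at 39.4% to 42.6% in the GSTM1 KD libraries. Rpl22l1 lay at 24.8% to 30.3% of Rpl22 in control KD and 27.7% to 29.2% in GSTM1 KD, which overlapped. Rps27l and Rpl22l1 had log2 fold changes of −0.45 and −0.30 after TNF-α with adjusted p of 0.0520 and 0.127 (edgeR).

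The pseudogene Rps4l, an intronless copy of the X-linked Rps4x that overlaps Tmtc1 on the other strand, amounted to 1.66% to 2.36% of Rps4x in control KD and 2.83% to 3.34% in GSTM1 KD. Its own level was 33.9 and 22.4 TPM in control KD and 37.7 and 30.9 TPM in GSTM1 KD at baseline, and 33.7 and 25.5 against 37.8 and 33.3 TPM after TNF-α. The change of this copy, 0.21 and 0.20 on the log2 scale, did not pass the test. Rps12l1 (13.9 to 40.1 counts) and Rps3a2 (17.4 to 64.3 counts) were low, varied most between replicates together with Rpl5, and did not pass the test in either state. Reads of such copies can be hard to place, although the counts of Rps4l were whole in all 8 libraries. In 54 of the 84 members above the floor the expected counts were not whole in any library, with a tolerance of 0.02, so that reads were divided with other genes, and in 11 they were whole in all 8 libraries. The 254 listed pseudogenes of members, named with -ps, summed to 3226 to 5561 TPM. Adding their counts to the parents left 2 calls at baseline and 22 after TNF-α, in fits that called 5.63% and 8.93% of all genes lower. On the other strand, 25 of the 87 members overlap another gene that is not a small RNA.

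**Figure D4:**
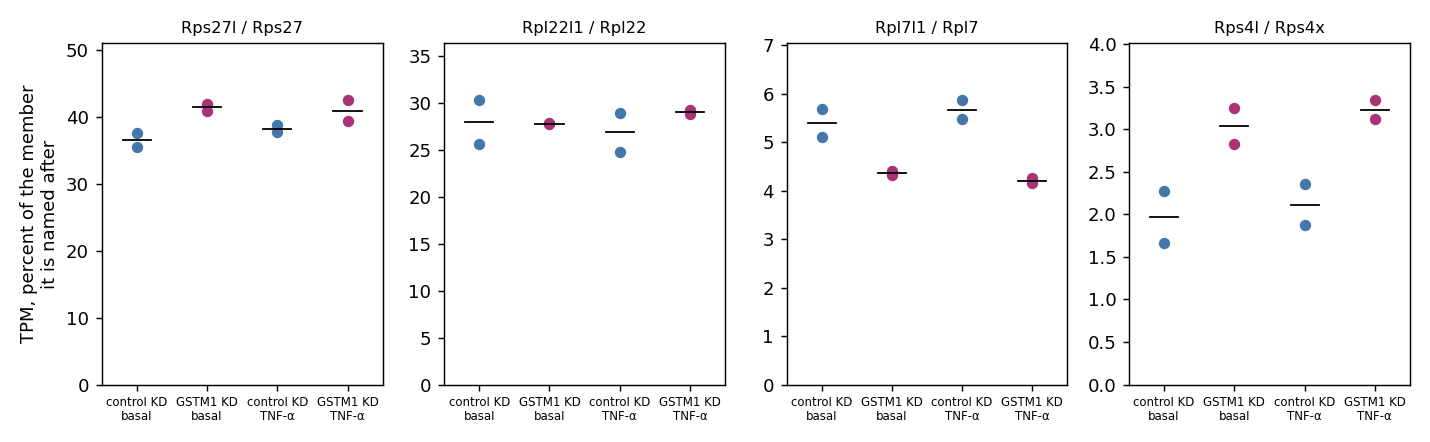
TPM of 4 paralogous members as a percent of the member they are named after, 2 libraries per group, with the group mean as a line and each y axis from 0. Rpl7l1 lies at 4.15% to 4.42% in GSTM1 KD and 5.12% to 5.87% in control KD, Rps4l goes the other way at 2.83% to 3.34% against 1.66% to 2.36%, and Rpl22l1 overlaps.

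No response of the ribosomal protein genes to TNF-α was detected beyond the spread between replicates. In control KD astrocytes 0 of 83 members passed the edgeR test, against 2.63% of 15332 genes. At an unadjusted p under 0.05 there were 0 members, against 12.5% of all genes. The median log2 fold change of the members was −0.02 (range −0.17 to 0.68). In GSTM1 KD astrocytes again 0 of 83 passed, against 2.65% of genes, and 0 had an unadjusted p under 0.05, against 10.9%. Their median was 0.04 (range −0.09 to 0.36). DESeq2 called 0 members for either response. Of all 15332 genes, DESeq2 called 3.63% higher and 1.34% lower for the control KD response. For the GSTM1 KD response these shares were 3.42% and 0.802%. The median standard error of a member was 0.167 log2 units, which bounds what could be seen. The member with the smallest p in control KD was Rpl7l1, from 104 to 113 CPM on average (adjusted p = 0.763), and in GSTM1 KD Rpl22l1, from 202 to 220 TPM (adjusted p = 0.771, edgeR). The difference of the TNF-α responses between GSTM1 KD and control KD was called in 0 members, as in 0% of the 15332 genes, of which 295 had an unadjusted p under 0.05, none of them a member. DESeq2 called 22 genes higher and 5 lower, none of them a member. The median difference of responses was 0.06 log2 units with a median standard error of 0.236. None of these medians has a settled sign: with 1 library left out they ran from −0.19 to 0.20 in control KD, from −0.05 to 0.16 in GSTM1 KD and from −0.15 to 0.24 for the difference.

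Other genes of ribosome production and translation were counted for comparison, from lists chosen by their known roles. Their counts are to be read against the 5.62% of all genes called lower at baseline and the 8.92% after TNF-α, and at baseline the 1 of 19, 1 of 17 and 3 of 45 genes given here are near that share. Of 19 other TOP mRNAs, mostly translation factors, 1 fell in each state, Nap1l1, a histone chaperone (−0.94 and −0.87), and the list medians were −0.18 and −0.20. Of 23 initiation factors 2 fell at baseline and 5 after TNF-α, with medians of −0.34 and −0.28, among them the eIF3 subunits Eif3b (−0.72 and −0.80) and Eif3j1 (−0.92 and −0.93). In these lists no gene rose past the edgeR test, and DESeq2 called 1 initiation factor higher at baseline.

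Of 45 ribosome assembly factors and nucleolar proteins 3 fell at baseline and 14 after TNF-α, none rose, and the medians were −0.39 and −0.47. Nolc1, a nucleolar phosphoprotein, fell by 0.92 and 0.98 on the log2 scale, Imp4, part of the machinery that processes small-subunit RNA, by 0.83 and 0.86, and Nop10, a pseudouridylation cofactor, by 0.86 and 0.80. Of 17 genes of RNA polymerase I and ribosomal RNA transcription 1 fell at baseline and 6 after TNF-α, with medians of −0.27 and −0.34. Rrn3, which brings polymerase I to its promoter, fell in both states by 0.81 and 0.92. Taf1c and Polr2e fell after TNF-α by 0.83 and 0.42. Of 9 dedicated chaperones 1 fell at baseline (Nap1l1, also counted above) and 2 after TNF-α (with Grwd1, a chaperone of Rpl3, at −0.70), with medians of −0.09 and −0.08.

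Of 23 regulators of these genes and their mRNAs (22 tested after TNF-α), Sp1, a transcription factor, fell by 0.75 and 0.73 and Eif4ebp2, a repressor of cap-dependent initiation, rose by 0.93 and 0.74. At baseline this is 1 lower and 1 higher gene of 23, near the 5.62% and 4.6% of all genes. After TNF-α Tsc1 (−0.51) and Myc (−1.04) also fell. Myc was at 106 and 66.2 CPM in control KD and 43.7 and 41.8 CPM in GSTM1 KD after TNF-α, and at 70.7 and 40.8 against 29.5 and 29.1 CPM at baseline, where the log2 fold change of −0.93 missed the threshold (adjusted p = 0.0775). Of 14 tested host genes of small nucleolar RNAs none passed in either state in edgeR, with 1 at an unadjusted p under 0.05 in each and 1 and 0 called by DESeq2, and the medians were −0.30 and −0.24. Of 14 p53 target genes with Mdm2, Sesn1 rose by 0.88 and 0.93, Gdf15 fell by 1.73 and 1.97 and Zmat3 by 0.58 and 0.54, and Mdm2 itself had log2 fold changes of −0.24 and −0.11 (adjusted p = 0.343 and 0.652).

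**Figure D5:**
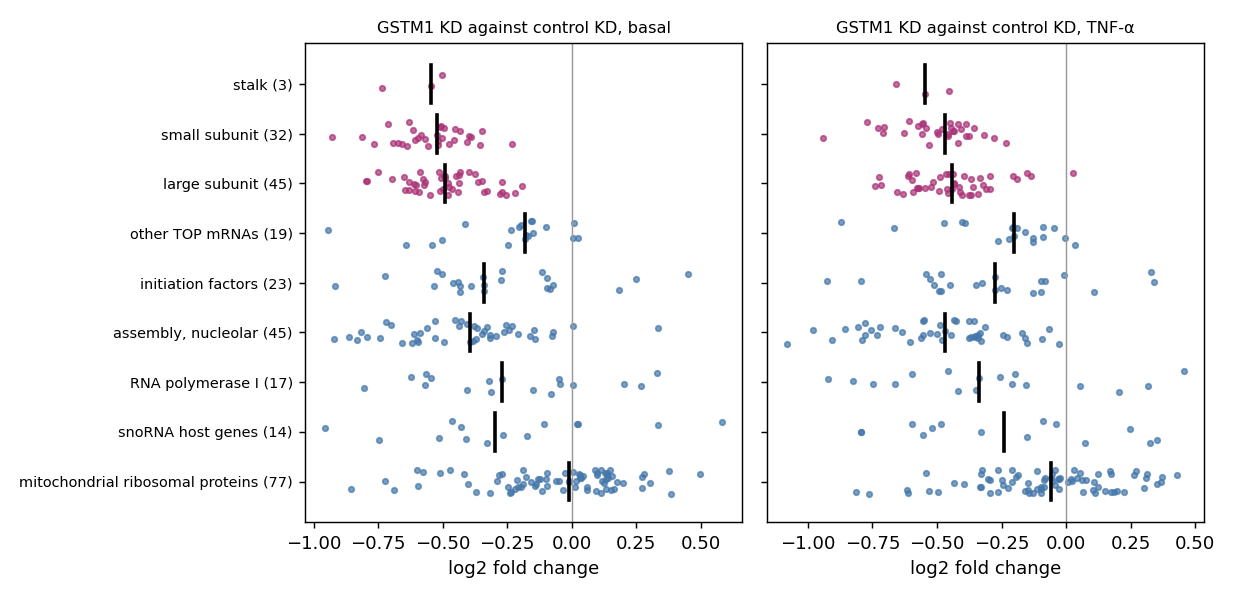
Log2 fold changes of GSTM1 KD against control KD at baseline (left) and after TNF-α (right), 1 point per tested gene, for the 3 classes of coding members and 6 related lists; black lines are medians and the numbers in brackets are genes tested. Member medians lie between −0.44 and −0.55 in both panels, whereas those of the 77 mitochondrial ribosomal protein genes are −0.01 and −0.06.

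Proteins of the mitochondrial ribosome, encoded in the nucleus by 77 Mrpl and Mrps genes, did not show this decrease. They summed to 7687 and 6748 TPM in control KD and 7678 and 7300 TPM in GSTM1 KD at baseline, and to 7396 and 6743 against 7378 and 7171 TPM after TNF-α. The ranges overlapped, the ratios of the group means were 1.04 and 1.03, and the median log2 fold changes were −0.01 and −0.06. Mrpl10 fell in both states (by 0.72 and 0.81) and Mrpl54 at baseline (by 0.86). Replicate 1 was again the higher in every group.

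Other measures were set beside the members' summed level, and not all of them followed it across the libraries. Gfap was at 996 and 3080 CPM in control KD and 3121 and 5631 CPM in GSTM1 KD at baseline, and at 921 and 2895 against 2985 and 5213 CPM after TNF-α. The 2 libraries with the most ribosomal protein mRNA had the least Gfap, and the 2 with the least had the most. The 10 astrocyte markers together summed to 3231 to 7340 CPM in control KD libraries and 6571 to 9607 CPM with GSTM1 KD, which overlapped. In each state the groups did not overlap for 6 markers that were higher and 2 that were lower in GSTM1 KD. Over all genes, 4807 of 14899 were apart upward at baseline and 31.2% downward. At baseline Aqp4 was at 653 and 1523 CPM in control KD against 918 and 1145 CPM, and Sox9 at 266 and 410 against 236 and 243 CPM. Of these 10, S100b fell in both states (log2 fold changes of −1.44 and −1.71). None of the 10, Gfap included, rose past the edgeR test without the replicate block. With the block several were called higher and 2 lower in each state, as given below. In each state 2 were higher at an unadjusted p under 0.05 and 1 was called higher by DESeq2. Genes of the mitochondrial genome held 3.18% to 3.85% of TPM in control KD and 4.73% to 4.94% in GSTM1 KD. The 7 genes of dividing cells summed to 468 to 506 CPM in control KD and 359 to 575 CPM in GSTM1 KD and none passed the edgeR test, with 1 lower at an unadjusted p under 0.05 and 0 called by DESeq2 in each state. The oligodendrocyte-lineage list summed to 577 to 742 CPM in control KD and 467 to 535 CPM in GSTM1 KD, where Olig2 fell in both states and Olig1 after TNF-α. The neuron list summed to 291 to 329 CPM in control KD and 334 to 373 CPM in GSTM1 KD, which did not overlap, and none of its 3 tested genes passed the edgeR test (0 and 1 higher at an unadjusted p under 0.05, and 0 by DESeq2). The endothelial list also separated the knockdowns, at 15.9 to 24.1 CPM against 7.30 to 14.5 CPM. Its 2 tested genes, Flt1 and Cdh5, had log2 fold changes of −0.91 and −1.65 at baseline and −0.76 and −1.41 after TNF-α, and edgeR called neither (adjusted p from 0.0872 to 0.173), while DESeq2 called both lower at baseline and 0 after TNF-α. The fibroblast or pericyte list summed to 128 to 291 CPM and 118 to 248 CPM, which overlapped, and Pdgfrb rose after TNF-α (0.81). The list of choroid plexus and ependymal markers overlapped as well, at 92.7 to 163 CPM and 118 to 141 CPM. Their part in the lower level of the members was not tested.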

How the data were processed

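RNA was sequenced by the authors as 100-base paired-end reads from strand-specific libraries, and the submitters' processing notes name STAR (2.5.4b), RSEM (1.3.0) and GRCm38. For each gene the authors deposited an expected count, an estimate in which a read that fits several transcripts is shared out between them, so that it need not be whole. The deposited TPM values are corrected for length and scaled to the same total by the authors. Effective lengths were deposited with them. Whether counting used the strand is not given in the sources used here.

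Expected counts were rounded. In edgeR (4.0.16, R 4.3.3), low genes were removed with filterByExpr, libraries were scaled by TMM and groups were compared by the quasi-likelihood test, with Benjamini-Hochberg adjustment over all genes tested and a threshold of 0.05. Knockdowns were compared within a state, on its 4 libraries, and TNF-α responses and their difference on all 8. CPM are counts scaled to the library size times its TMM factor. The test was run first on simulated counts drawn independently for each gene. Those counts held no shift common to the members, so the run says nothing about calls under such a shift. Total counts of 17349676 to 34434633 per library set the precision together with the spread between replicates, whose common coefficient of variation was 14.5% to 15.8%. Nothing in the labels says whether replicates came from separate cultures or animals, so p-values measure only the spread between these libraries.

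Members, gene lists and tests were chosen with earlier results of these data known. Named with values were, per comparison, the 5 lower and 5 higher members with the smallest p among those past the threshold, the 10 highest and 5 lowest by TPM, members at or under 3 counts, paralogs, the 3 with the largest replicate spread, and up to 3 called genes per related list. Some genes that this rule would name are not reported here. Gene positions are those of GENCODE M21, where 80 of 87 members had the same identifier version. Promoters came from RefSeq, and 24 members are not in that table. Alternatives used DESeq2 (1.42.0), limma (3.58.1) on log2(TPM + 1) or log2(TPM + 0.1), other scaling and filters, length offsets, pseudogene counts added to parents, the replicate block and leaving out each library.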

Additional observations from a re-analysis of the deposited data

How the results depend on the processing

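The medians of the members for GSTM1 KD kept their sign in both states under every alternative and moved by less than the replicate spread of 0.223 log2 units, while the number of members called moved. At baseline, against 3 calls, there were 42 with DESeq2, 69 with no filter on low counts, 26 when all 8 libraries were fitted, and 1 with limma on log2(TPM + 1) and on log2(TPM + 0.1). All genes were called lower there in 10.2%, 8.76%, 9.82%, 3.24% and 3.24%, and the limma counts of members are a smaller share of 83 than that, in both states. After TNF-α, against 22, there were 47, 67, 14, and 3 and 3 in the same order, with 11.2%, 9.83%, 10.1%, 4.79% and 4.78% of all genes, and 12 with library size as the sole scaling (7.97%). The causes were not tested. Leaving out 1 library at a time gave 0 to 80 calls at baseline, with medians from −0.70 to −0.30, and 0 to 74 after TNF-α, with medians from −0.59 to −0.31. In those fits the lone library of a group is assumed to vary like the others. Where a GSTM1 KD library was left out, all genes together gave 1 higher and 0 lower or 1 and 2 calls at baseline, and 0 and 0 or 63 and 31 after TNF-α. Rps13 lost its call at baseline with library size as scaling (adjusted p = 0.0524), with pseudogene counts added (0.0501) and with limma (0.0641 and 0.0623), as did Rpl7l1 with limma (0.0534 and 0.0533). The log2 fold changes in those fits were −0.79 to −0.71 for Rps13 and −0.51 to −0.50 for Rpl7l1. After TNF-α Rpl28 and Rps2 lost theirs with limma (0.0621 to 0.0743). These and Rpsa all lost their calls when a GSTM1 KD library was left out. No member was called for the TNF-α responses or their difference under any alternative.

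The replicate numbers are not said to pair the libraries, and with 2 per group the data cannot settle it. The differences between replicates 1 and 2 correlated between groups at 0.16 to 0.58 over 15332 genes. With the replicate block, 72 members were called lower at baseline and 62 after TNF-α, against 15.9% and 15.3% of all genes, and in DESeq2, added after seeing the data, 66 and 51, against 10.2% and 10.3%. The block in edgeR called 6 of the 10 astrocyte markers higher and 2 lower at baseline, and 5 higher and 2 lower after TNF-α. Without it 0 were called higher and 1 lower in each state. Of all genes the block called 15.7% higher and 15.9% lower at baseline, and 14.1% and 15.3% after TNF-α. The block gave medians of −0.50 and −0.45.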

Other observations

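Other short sequences were counted in the 300-base promoter windows of the RefSeq table, from 250 bases before the first listed start to 50 after it, on both strands. CCGGAA, the core bound by ETS factors such as GABPA, was in 32 of 63 member windows (50.8%) and in 19.1% of 17491 protein-coding windows. CACGTG, the E-box bound by MYC, was in 5 (7.94%) against 7.90%, AAGATGGC, the core of the YY1 site, in 5 (7.94%) against 3.22%, and TATAAA in 6 (9.52%) against 13.3%. These are counts of letters in a window and not of binding sites.

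Of the 14 tested p53 genes, Btg2 and Eda2r rose with TNF-α in both control KD (log2 fold changes of 0.98 and 0.57) and GSTM1 KD (0.81 and 0.72, edgeR), and Trp53 (0.99) and Phlda3 (0.44) passed the test in GSTM1 KD. The difference of these responses between the knockdowns was called for 0 of the 14 genes in edgeR, with 0 at an unadjusted p under 0.05 and 0 called by DESeq2.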
